A study of Mus musculus with 3 samples.

Results

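Mid inhibitory (MI) neurons of the mouse lumbar spinal cord are described here from single-nucleus RNA sequencing. They are the nuclei typed as neurons whose deposited, refined sub-type was MI, and they numbered 542 of 8800 neurons (6.16%) and of 14662 nuclei in all (3.7%). The authors typed motor neurons apart, and these are not among the 8800, so that each share of neurons given here leaves them out. The mice were 90 days old, 3 of each sex of the strain B6.Cg-Tg(SOD1G93A)1Gur/J (SOD1G93A below) and 3 of each sex of their C57BL/6J (WT) littermates. The SOD1G93A strain carries many copies of a human SOD1 transgene with an ALS mutation on the C57BL/6J background, and the WT mice carry none. The transgene is not restricted to a cell type, and no group was treated. Frozen cords were the source of the nuclei, which were tagged with hashtag antibodies. In each of 3 pools, A, B and C, 1 mouse of each sex and genotype was run together, so that every genotype and sex comparison was made within pools. Per the paper's supplement, each hashtag marked the same combination of sex and genotype in every pool. Effects of the hashtag therefore cannot be told apart from those of sex and genotype.

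Inhibitory interneurons of the spinal cord release GABA, glycine or both. Gad1 and Gad2 encode the enzymes that make GABA, Slc32a1 the vesicular transporter that loads GABA and glycine, and Slc6a5 the neuronal glycine transporter. Abat encodes the transaminase that breaks GABA down. Dorsal inhibitory neurons gate touch, itch and pain input, whereas ventral inhibitory neurons shape motor output, and the intermediate cord between them holds neurons of both lineages that relay sensory and descending signals to motor circuits. In amyotrophic lateral sclerosis (ALS), which the SOD1G93A mouse models, motor neurons degenerate, and inhibition onto them is one of the studied features.

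The MI nuclei of a mouse numbered 40, 72 and 62 in the female WT mice of pools A, B and C and 65, 103 and 30 in the male WT mice. In SOD1G93A they numbered 15, 33 and 13 in the females and 49, 31 and 29 in the males. The median MI nucleus held 12782 UMIs (2856 to 56413) and 3815 genes, against a median of 11763 UMIs in dorsal inhibitory (DI), 23031 in ventral inhibitory (VI) and 10188 in dorsal excitatory (DE) nuclei. Summed over nuclei, a mouse had between 167084 and 1584332 MI UMIs, and its median per nucleus lay between 9231.5 and 15116. The median score of the mapping to the reference that gave the sub-types was 0.683 in MI, against 0.889 in DI and 0.433 in VI. In all, 30 nuclei had a barcode that also occurred in another pool, and 1 of them was an MI nucleus. Where levels are given, they are CPM, the usual scaling to a fixed total of the UMIs summed over the MI nuclei of a mouse, and they are compared between groups for the same gene, not between genes. The sub-types were assigned from the expression of these nuclei, so levels in MI against other sub-types are a description without a test.

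MI neurons carried an inhibitory profile in which Gad2 was high. Gad2 was 155 ± 20.0 CPM in MI (SD, n = 12 mice, 111 to 185.5), against 107 ± 13.4 in DI and 42.1 ± 12.7 in VI, and was highest in MI of the 8 named sub-types. It was above DI in 11 of the 12 mice and above VI in 12. Gad1 lay between its neighbours, at 66.0 ± 18.6 CPM in MI (34.2 to 100.6), 114 ± 20.5 in DI and 20.6 ± 5.47 in VI. In log2 terms MI was 0.81 below DI and 1.61 above VI, with 1 mouse above DI and 12 above VI. Slc6a5 was 90.0 ± 20.0 CPM in MI (65.43 to 125.7), which did not separate from DI at 84.6 ± 12.6 (MI above in 7 of 12 mice), and it was 151 ± 26.5 in VI (MI above in 1 of 12). Abat was at 157.2 CPM in MI, below the 205.7 of DI in all 12 mice and close to the 159.2 of VI. Slc32a1 was 31.2 ± 10.4 CPM in MI, 37.5 in DI and 40.3 in VI, with overlapping ranges and MI above each in 2 of 12 mice. The plot of transmitter genes by mouse thus shows MI beside DI in the glycine transporter, and apart from VI in the genes for GABA synthesis.

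**Figure D1:**
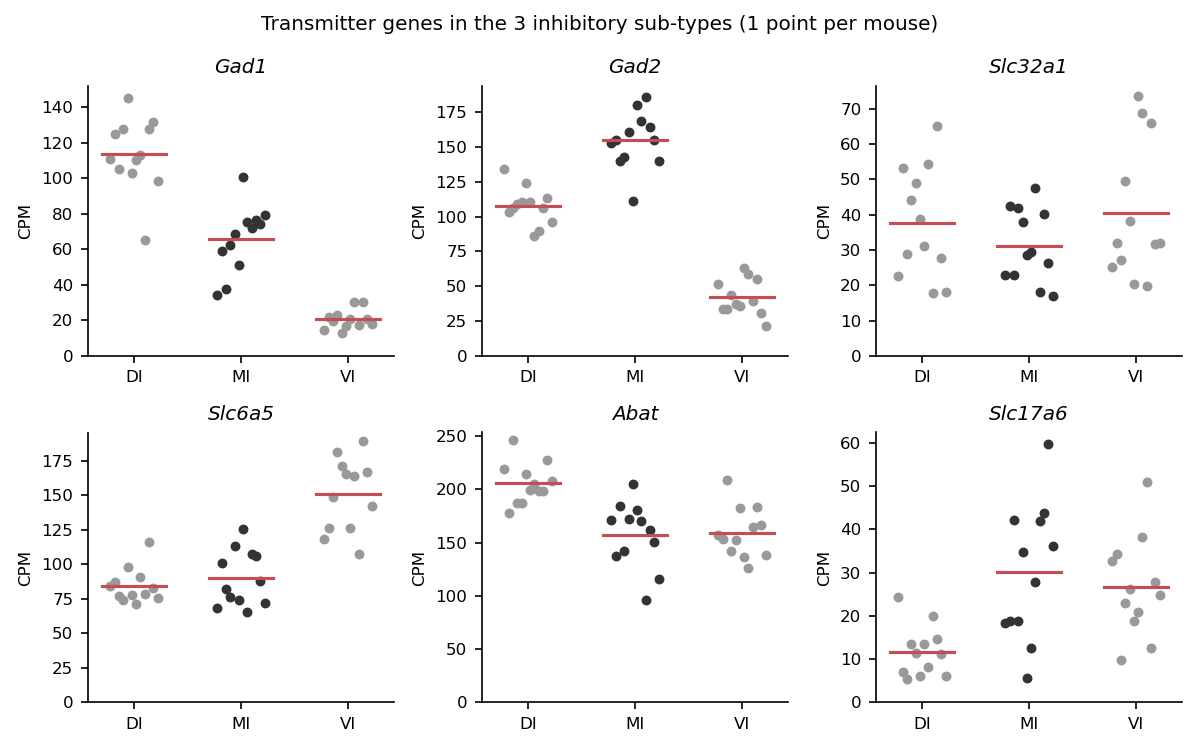
CPM (y axis, from 0) of 6 transmitter genes in the DI, MI and VI neurons (x axis), 1 point per mouse (n = 12), with MI in black and the mean as a red line. Gad2 is highest in MI, Gad1 in MI lies between DI and VI, and Abat is lower in MI than in DI.

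Counted by nucleus, 75.8% of MI nuclei held a UMI of Gad1 or Gad2, and 53.7% (49.4 to 58.0) held one of Slc6a5 (exact 95% binomial interval). Both kinds were found in 255 nuclei (47.0%, 42.8 to 51.3), a Gad gene without Slc6a5 in 156 (28.8%), and Slc6a5 alone in 36 (6.64%), while 95 (17.5%) held none of the 3 genes. These intervals cover counting error only. In DE neurons, which should lack these genes and had a median of 10188 UMIs, the shares were 6.67% for Gad1, 6.73% for Gad2 and 9.84% for Slc6a5, under the 45.8%, 69.7% and 53.7% of MI. In ventral excitatory (VE) neurons, which were deeper at a median of 19812 UMIs, they were higher, at 11.7%, 17.5% and 30.4%. Each nucleus was then thinned to 5000 UMIs, which kept 528 MI nuclei and left out 14. The MI shares became 24.8%, 49.8% and 31.1%, against 3.73%, 7.07% and 16% in 1288 VE nuclei (29 left out). In 2773 DE nuclei (316 left out) the thinned shares were 2.96%, 3.1% and 4.44%. The VE shares thus stayed above those of DE at equal depth, most of all for Slc6a5. A Gad gene with Slc6a5 was found in 42.7% of DI and 48.4% of VI nuclei, close to MI, but Slc6a5 alone was in 31.5% of VI nuclei. At 5000 UMIs the shares with both kinds were 21.2% in MI (528 nuclei), 19.9% in DI (1495 nuclei, 94 left out) and 14.3% in VI (491 nuclei, 5 left out).

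Inhibitory genes, which helped to set the label and so do not test it, were detected in most but not all MI nuclei. A UMI of Gad1, Gad2, Slc32a1 or Slc6a5 was present in 457 of the 542 (84.3%), against 93.3% of DI, 89.3% of VI, 26.2% of DE and 44.0% of VE nuclei and 27.9% of oligodendrocytes (median 5786 UMIs). The vesicular glutamate transporters Slc17a6 or Slc17a8, markers of excitatory neurons, were found in 99 MI nuclei, of which 47 (8.67%) held no inhibitory gene. A transporter without an inhibitory gene was also found in 0.378% of DI, 7.26% of VI and 47.7% of DE nuclei and 7.81% of oligodendrocytes. The MI share was thus above that of DI but close to those of VI and oligodendrocytes, and is not by itself particular to MI. All 47 of these MI nuclei had been mapped to the reference cluster MI_3. The exception was concentrated in 2 of the clusters that the authors made from the integrated data. In cluster 18, whose other nuclei were mostly DE (205 of 289), the 23 MI nuclei had Slc17a6 at 202 CPM, Gad2 at 3.21 CPM and no UMI of Gad1. In cluster 0, mostly VE (652 of 800), the 17 MI nuclei had Slc17a6 at 224 CPM, Gad2 at 8.95 CPM and no UMI of Gad1. These 40 nuclei had an excitatory profile in spite of their label. They came from mice of both genotypes, 18 WT and 5 SOD1G93A in cluster 18 and 10 and 7 in cluster 0, and the numbers of called genes, the share and the levels of MI_3 nuclei are also given without them.

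Markers of other cell types were measured in MI beside their own type. The summed level of 6 oligodendrocyte markers was 445 ± 111 CPM in WT and 412 ± 150 in SOD1G93A mice (n = 6 each), against 11600 CPM in oligodendrocytes. Among them St18 was at 140 CPM in WT and 104 in SOD1G93A with scaled library sizes. Astrocyte markers summed to 115 ± 27.0 and 140 ± 71.7 CPM, against 7300 in astrocytes, and endothelial markers to at most 17.1 CPM in any mouse. Markers of oligodendrocyte precursors averaged 392 CPM over the 12 mice, against 3840 in their own type. Most of this sum was Tnr, at 382 CPM in WT and 411 in SOD1G93A with scaled library sizes. In the nuclei mapped to MI_3, Tnr was at 589 CPM and Cspg4 and Pdgfra at 0.791 CPM each. Microglial markers averaged 52.4 CPM, against 131 CPM in microglia and 45.9 in DE neurons. With scaled library sizes, P2ry12 was most of this sum (42.3 CPM in WT and 43.3 in SOD1G93A). Slc1a2 was most of the astrocyte sum (94.6 and 119). These sums mainly follow Tnr, P2ry12 and Slc1a2 and do not give the share of RNA from other cells. Slc17a7 was at 0 in every mouse. The summed excitatory markers were 23.8 ± 12.9 CPM in WT (5.69 to 42.2) and 37.0 ± 15.9 in SOD1G93A (12.6 to 59.7), and were higher in SOD1G93A in 4 of 6 pairs of one sex and pool.

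Of 5973 genes at a mean of 20 CPM or more in MI, 42 were higher than in both DI and VI in each of the 12 mice, and 12 of these by at least 1 on the log2 scale (CPM + 1), or 14 without the 40 nuclei of clusters 0 and 18. Over the 6540 genes at this level in MI, DI or VI, 4.97% were above and 3.91% below DI in all 12 mice, and 5.7% were above and 6.93% below VI. The gene with the largest margin was Mcub, an inhibitory subunit of the mitochondrial calcium uniporter, at 23.6 CPM in MI, 2.95 in DI and 2.43 in VI. Fbxl7, an F-box gene, was at 190 CPM against 41.7 and 36.8, and Chrna7, the alpha7 nicotinic acetylcholine receptor subunit, at 133 against 32.6 and 45.7. The transcription factor Tcf4 was at 717 ± 90.0 CPM (562.6 to 830) against 275 and 245, and Zfp521, a zinc-finger factor, at 340 against 104 and 147. Receptor subunits were among them, with Glra2 of the glycine receptor at 103 CPM against 51.4 and 26.6 and Gabrb1 of the GABA-A receptor at 1059 against 552 and 448. Pde1a, a calmodulin-dependent phosphodiesterase, was at 266 CPM against 132 and 58.2.

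Most of these genes were not particular to MI among all neurons. Mid excitatory (ME) neurons had higher levels of Mcub (32.7 CPM), Gm4876 (132, against 76.9 in MI), Gm29478 (45.2, against 25.6) and Tcf4 (1196). Of 641 genes whose mean was highest in MI among the 8 named sub-types, Arhgap15 and Rspo3 were at least 1 on the log2 scale above the next sub-type and above it in all 12 mice. Arhgap15, which encodes a Rac GTPase-activating protein, was at 161 ± 47.4 CPM in MI (79.63 to 232), 60.6 in DE and 51.1 in DI. Rspo3, a secreted amplifier of Wnt signalling, was at 56.2 ± 16.8 CPM in MI (28.47 to 88.01) and 22.7 in DI. Also at least 1 above the next sub-type on average, but in 10 and 11 of the 12 mice, were 9330185C12Rik (32.0 CPM) and AC129186.1 (201). The rest led by less, such as Sgcd, a sarcoglycan, with 1562 CPM against 840 in DI and 948 in VI. Hcrtr2, an orexin receptor (121 CPM), Fgf10 (72.5) and Zeb2 (414) were also highest in MI.

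Below both neighbours in all 12 mice were 18 genes, 2 of them by at least 1 on the log2 scale. These were Plce1, a phospholipase C, at 14.2 CPM against 34.2 in DI and 67.4 in VI, and Eya2, at 11.5 against 27.6 and 38.4. The heparan sulfate sulfotransferase Hs6st3 was at 1177 ± 189 CPM in MI against 2928 and 2080, the sorting receptor Sorcs3 at 197 against 479 and 362, and the AMPA receptor subunit Gria3 at 445 against 621 and 953. Hs6st3 and Sorcs3 were lowest in MI of the 8 named sub-types.

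**Figure D2:**
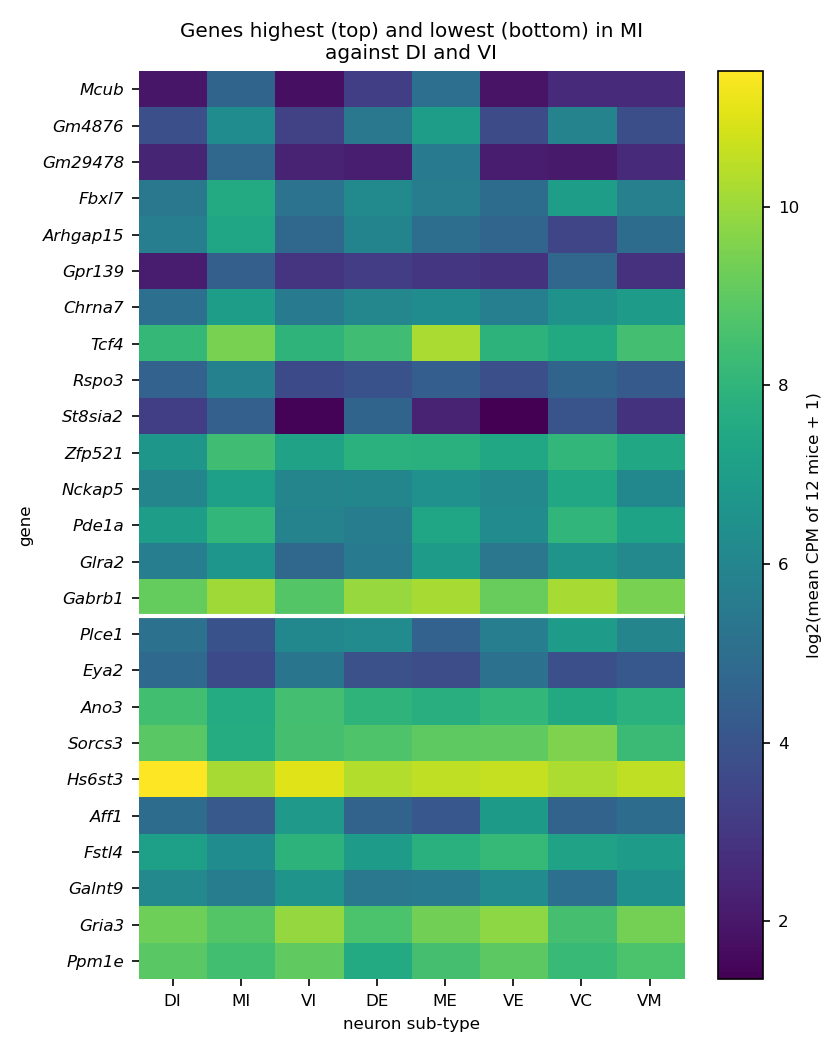
Mean level over 12 mice, as log2(CPM + 1), of 15 genes highest (above the white line) and 10 lowest (below it) in MI against DI and VI, with the 8 named sub-types on the x axis. Mcub, Gm4876, Gm29478 and Tcf4 are higher still in ME neurons, whereas Arhgap15 and Rspo3 are highest in MI.

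Against each neighbour alone, 83 genes were above and 99 below DI, and 183 above and 122 below VI, in all 12 mice and by at least 1 on the log2 scale. Above DI were Tacr1, the substance P receptor (56.0 CPM against 8.403), Satb1, a chromatin organiser (136 against 21.6), and Npsr1, the neuropeptide S receptor (32.7 against 4.96). Below DI were Syt10 (7.07 against 57.6), Nr2f2 (6.80 against 31.9) and the nuclear receptor Rorb (158 against 546), which marks inhibitory neurons of the deep dorsal horn. Above VI were Hmga2 (64.7 against 3.62), Stac (230 against 16.1) and Zic1 (25.4 against 1.78), and below VI were Zfhx3 (81.4 against 522), Kcns3 (12.1 against 69.3) and Lrmda (57.1 against 325). Across the 6540 genes the log2 profile of MI correlated with DI at r = 0.963 and with VI at r = 0.926. The highest value was for the nuclei left as unclear (0.968), and VM (mixed ventral, 0.952), ME (0.95), ventral cholinergic (VC; 0.948), DE (0.943) and VE neurons (0.939) came between DI and VI. These are correlations over genes that share libraries, and genes are not independent replicates.

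Gene groups differed in where MI stood. Spinal neurons born early express Onecut factors and those born late Nfi factors. Among 14 such factors, 10 reached 20 CPM in 1 of the 3 inhibitory sub-types. Nfib (457 ± 75.9 CPM in MI, 251 in DI, 100 in VI), Nfix (42.5, 25.7 and 8.401) and Tcf4 were above both in every mouse, and Pou2f2 (46.8, 28.0 and 24.4) above DI in every mouse and above VI in 11. Zfhx3 and Onecut2 (9.82 CPM in MI, 37.1 in VI) were below VI in every mouse. Of 6 dorsal inhibitory factors at 20 CPM, Pax8 (59.7 CPM against 123), Gbx1 (18.2 against 43.0) and Sall3 (40.9 against 92.1) were below DI in all 12 mice. Sall3 was above VI (8.52) in all 12 mice, and Pax8 (25.5) and Gbx1 (2.97) were above VI in 11. Satb1, of the same list, went the other way, with 136 CPM in MI against 21.6 in DI and 41.2 in VI, while Pax2 (143, 217 and 106) and Rora (1495, 1572 and 1746) did not separate from both neighbours in all 12 mice. Ebf1, of the dorsal excitatory list, was at 634 CPM in MI, 1922 in DI and 206 in VI. No ventral excitatory factor reached 20 CPM.

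Receptors and channels differed by subunit. The counts of each list are to be read against all 6540 genes at 20 CPM in MI, DI or VI. Of these, 4.97% were above and 3.91% below DI, and 5.7% above and 6.93% below VI, in every mouse. Whether a list exceeded these shares was not tested. Of 11 GABA-A receptor subunits at 20 CPM, 3 were above DI in every mouse, among them Gabrb1 and Gabrb2 (197 against 76.3 CPM), and 4 were above VI. Gabra5 was below VI in every mouse (57.1 against 120). Of 16 ionotropic glutamate receptor subunits, Grin3a (295 against 169) and Grid1 (651 against 285) were above DI in every mouse, and Gria1 (652 against 954), Gria3 and Grin2a (614 against 849) below. Of 26 potassium channel genes, 7 were below and 2 above DI, and 9 were above and 2 below VI, in every mouse. The 2 above DI and the 2 below VI are near the shares of all genes and do not set this list apart. Kcnh7 was the clearest of those above DI (1073 against 435 CPM), and Kcnt2 (386 against 677 in DI and 112 in VI) was between its neighbours. The sodium channels Scn1a (499 CPM against 372 in DI and 649 in VI) and Scn9a (179 against 108 and 330) were also intermediate in all 12 mice. Of 31 adhesion and guidance genes, 10 were above DI in every mouse, among them Slit2 (440 against 131 CPM, and 958 in VI), Ntng1 (263 against 85.8) and Epha6 (1110 against 427). Tenm3 (705 against 1434) and Unc5c (748 against 1330) were below. Against VI, 6 genes of this list were above and 3 below in every mouse.

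MI neurons were not uniform. By their best match in the reference, 276 (50.9%) mapped to its cluster MI_3, 125 (23.1%) to MI_4, 125 (23.1%) to MI_1 and 5 to MI_2, and the other 11 to clusters outside MI. The clusters that the authors made without the reference followed this split, since 178 MI_3 nuclei lay in integrated cluster 21, 119 MI_4 nuclei in cluster 34 and 66 MI_1 nuclei in cluster 44. Beyond MI, 32 neurons that mapped to an MI cluster were labelled DI, 5 unclear and 3 DE. The summed UMIs behind the levels below were 2089097 for MI_1, 3790578 for MI_3 and 1693805 for MI_4, and, as the nuclei were sorted by expression, these levels are also a description.

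MI_3 nuclei were marked by Reln, a secreted glycoprotein of neuronal positioning, at 341 CPM against 7.66 in MI_1 and 4.13 in MI_4. The sulfotransferase Chst9 (267, 6.22 and 2.95 CPM in MI_3, MI_1 and MI_4), the zinc-finger cofactor Zfpm2 (870, 36.9 and 48.4) and the transcription factors Prox1 (106, 4.79 and 6.49) and Foxp2 (78.4, 4.79 and 6.49) followed the same pattern. Each of these 4 was highest in MI_3 in all 12 mice and Reln in 11. The guidance receptor Nrp2 (121 CPM) and the adhesion gene Sdk1 (707) were highest in MI_3 in all 12 too. MI_3 had the lowest Gad1 (38.8 CPM) and the highest Slc17a6 (55.7, against 5.27 and 8.86), and 71.7% of its nuclei held an inhibitory gene. In its largest part, cluster 21, the share was 84.8%, with Gad2 at 148 CPM and Slc17a6 at 20.5. Without the 40 nuclei of clusters 0 and 18, all of them MI_3, Reln was at 210 CPM, Chst9 at 218 and Slc17a6 at 23.2, while Zfpm2 (849), Prox1 (107), Foxp2 (75.4), Nrp2 (106) and Sdk1 (764) moved less. The sulfotransferase genes Ndst4 and Hs3st2 went from 403 to 205 and from 89.2 to 25.5 CPM, and D130079A08Rik from 64.9 to 2.86.

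MI_1 nuclei were marked by the long non-coding 9330185C12Rik, at 129 CPM against 0.528 in MI_3 and no UMI in MI_4, and by Tll1, a metalloprotease (261, 27.4 and 15.4 CPM in MI_1, MI_3 and MI_4), and Ldb2, a LIM-domain cofactor (505, 68.1 and 43.1). Pax5 (24.4 CPM) and Tfap2b (24.4) were transcription factors of this group, and the orphan receptor Gpr139 (52.2 against 9.50 and 4.72) was highest there in 11 of 12 mice. Slc6a5 was highest in MI_1 (134 CPM, against 77.03 and 72.03), where 64.8% of nuclei held a Gad gene with Slc6a5.

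MI_4 nuclei were marked by the chromatin gene Hmga2 (258 CPM, against 3.83 in MI_1 and 8.44 in MI_3), Gsap (308, 25.4 and 21.4) and Rorb (511, 42.6 and 100). Rspo3 was at 154 CPM in MI_4 and at 23.9 and 28.8 in the others, so that its lead over other sub-types came mostly from these nuclei. Tac2, the neurokinin B gene, was at 43.7 CPM and Pdyn at 16.5, with no UMI of Pdyn in MI_1 or MI_3, and Penk was at 63.2. The GABA genes were highest here, with Gad1 at 120 and Gad2 at 219 CPM, and 45.6% of nuclei held a Gad gene without Slc6a5. Pax2, a factor of inhibitory fate, was at 294 CPM, against 125 in MI_1 and 73.3 in MI_3.

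The make-up did not differ detectably between genotypes. In WT mice MI_1 made up 21.8 ± 6.55%, MI_3 54.0 ± 9.19% and MI_4 21.1 ± 5.34% of the MI nuclei (n = 6). In SOD1G93A mice the shares were 24.8 ± 7.35%, 48.2 ± 8.52% and 24.4 ± 11.5%, and the groups overlapped for each cluster. The genotype effects in log2 were 0.201, −0.19 and 0.244, with an edgeR FDR of 0.465 for each.

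**Figure D3:**
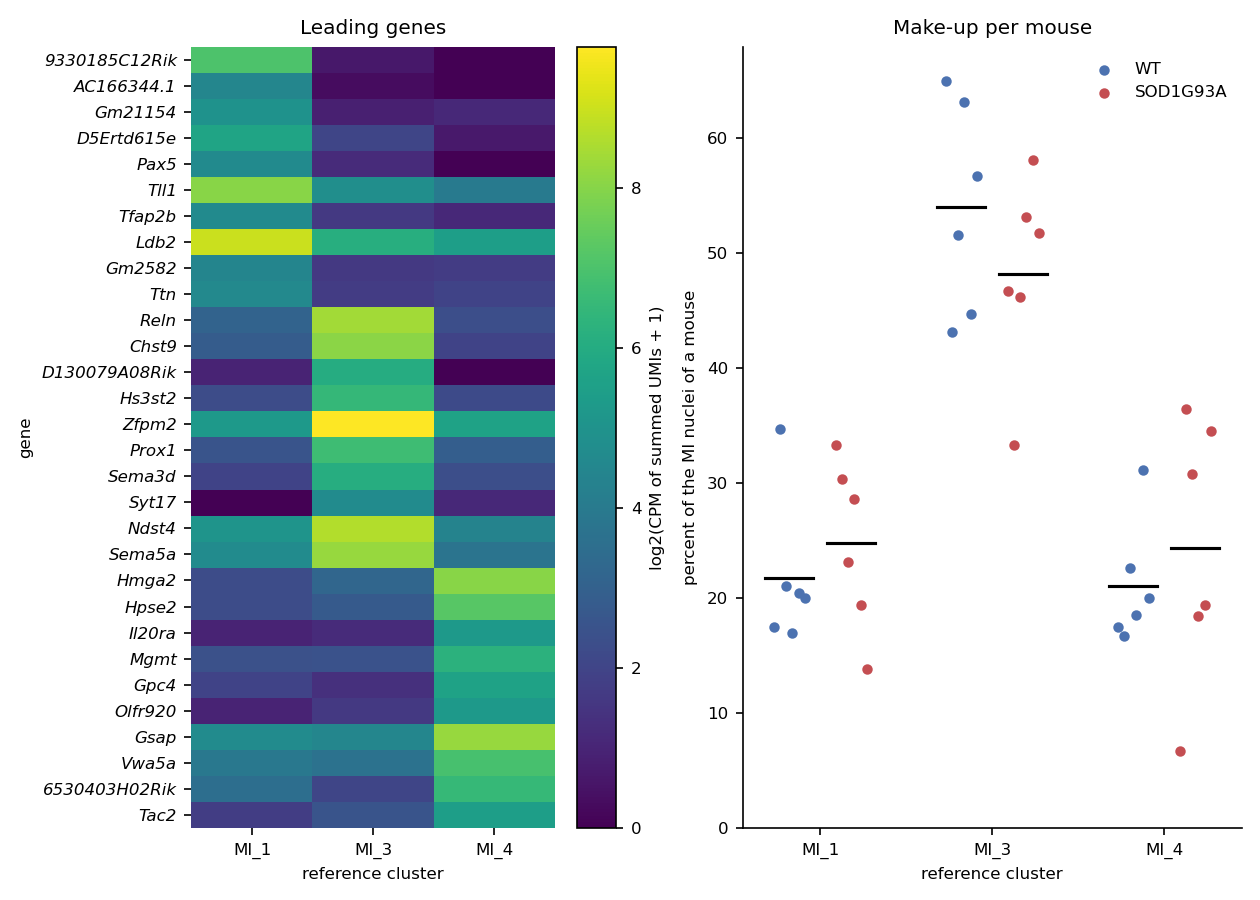
Left, levels as log2(CPM + 1) of the 10 leading genes of each reference cluster (y axis) in the MI nuclei mapped to MI_1, MI_3 and MI_4 (x axis), from UMIs summed over 12 mice. Right, percent of the MI nuclei of a mouse in each cluster, 1 point per mouse in blue for WT and red for SOD1G93A with the mean as a bar, where the points of both genotypes overlap.

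The share of MI among neurons was compared to ask whether the transgene changed the number of these nuclei recovered. In WT mice it was 5.89, 6.79 and 6.57% in the females of pools A, B and C and 6.57, 6.58 and 6.16% in the males. In SOD1G93A mice it was 5.6, 6.47 and 3.89% in the females and 6.09, 4.22 and 6.84% in the males. The WT mice were close together, at 6.43 ± 0.333%, and the SOD1G93A mice were spread wider, at 5.52 ± 1.21%, with 2 of them, the female of pool C and the male of pool B, below every WT mouse by more than 1 percentage point. The exact 95% intervals of these 2, 2.09 to 6.56% and 2.88 to 5.93%, come from 13 and 31 nuclei. The share was lower in SOD1G93A in 5 of 6 pairs of one sex and pool, with a mean difference of −0.91 ± 1.32 percentage points. The two-sided exact permutation test over the 6 pairs gave p = 0.188, where 0.0312 is the smallest value possible. By edgeR's quasi-likelihood test the log2 effect was −0.23 (FDR = 0.747 over 9 sub-types). The limma estimate was −0.233 with an SE of 0.179 and a 95% interval of −0.624 to 0.159. Of all nuclei MI made up 4.11 ± 0.501% in WT and 2.89 ± 0.702% in SOD1G93A (log2 −0.506, edgeR FDR = 0.0796), lower in 6 of 6 pairs by 1.22 ± 0.922 percentage points (two-sided exact permutation p = 0.0312, the smallest possible). The share of neurons among the nuclei of a mouse moved with it, lower in 6 of 6 pairs by 11.4 ± 5.71 percentage points. The share did not differ detectably by sex (log2 −0.0206 for female minus male, edgeR FDR = 0.938), and the genotype effect did not differ detectably between the sexes (0.0357, edgeR FDR = 0.927). Without the 40 nuclei of clusters 0 and 18 the genotype effect was −0.202 (edgeR FDR = 0.747).

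**Figure D4:**
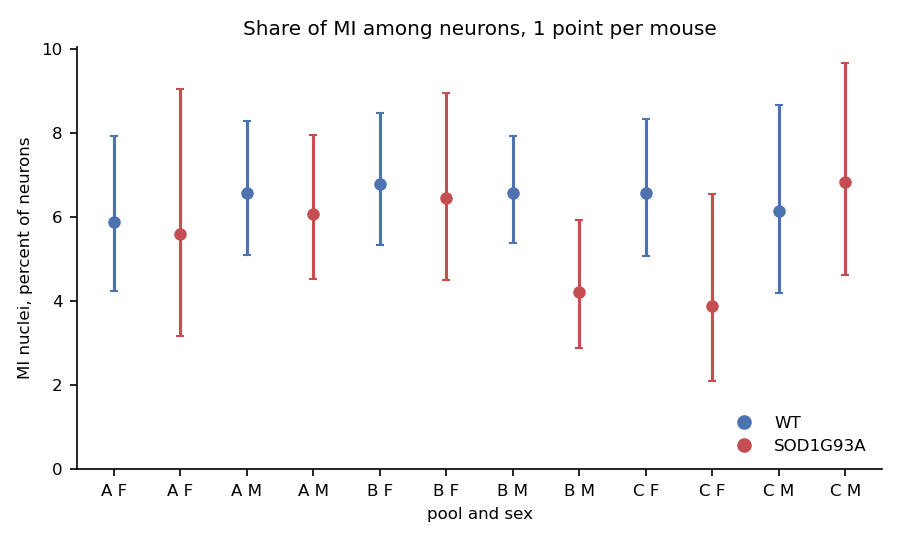
Percent of the neurons of a mouse that were MI (y axis, from 0), 1 point per mouse with the exact 95% binomial interval, in blue for WT and red for SOD1G93A. The x axis gives the pool and sex (F or M), with the SOD1G93A mouse beside the WT mouse of the same pool and sex, and lower in 5 of 6 pairs.

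Few genes passed the test for genotype in MI neurons. The UMIs of the MI nuclei of a mouse were summed and tested with limma (voom) in the 12 mice, and 4 of 6672 genes (0.06%) passed FDR < 0.1. Of these 2 (0.03%) were higher and 2 (0.03%) lower in SOD1G93A, while 280 had an unadjusted p under 0.05, 157 higher and 123 lower, and the median log2 change over all genes was 0.0144. The levels by mouse that follow are CPM with scaled library sizes.

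Xpo1 rose most clearly. It encodes exportin 1, the main receptor for nuclear export of proteins, and lies on chromosome 11 at 23256041 to 23298249 of mm10 on the plus strand. It was at 67.7, 74.0 and 58.7 CPM in the female WT mice of pools A, B and C and 72.7, 69.3 and 69.8 in the males. In SOD1G93A it was at 145, 127 and 144 in the females and 119, 116 and 126 in the males, so that the groups did not overlap and all 6 pairs were higher. The log2 change was 0.89 ± 0.13 (SE, limma FDR = 0.00242), from 68.7 ± 5.43 to 130 ± 12.5 CPM (SD, n = 6). A UMI of Xpo1 was found in 56.5% of WT and 70.0% of SOD1G93A MI nuclei. The level summed over mice was higher in SOD1G93A in MI_1 (71.6 and 109 CPM), MI_3 (57.4 and 117) and MI_4 (76.5 and 128). By mouse it was higher in 6 of 6 pairs in MI_3, but in 4 of 6 in MI_1 and in MI_4. Xpo1 also rose in DE neurons (log2 0.53 ± 0.08, limma FDR = 0.0146) and in the nuclei that the authors left as unclear (0.58 ± 0.09, limma FDR = 0.01). The values were 0.41 ± 0.10 in DI (limma FDR = 0.3) and 0.49 ± 0.13 in VI (limma FDR = 0.683). They were 1.075 ± 0.20 in VC (limma FDR = 0.124), 0.76 ± 0.26 in ME (limma FDR = 0.994), 0.47 ± 0.09 in VE (limma FDR = 0.118) and 0.42 ± 0.24 in VM (limma FDR = 0.998). Summed over nuclei, Xpo1 was at 85.3 CPM in WT and 127 in SOD1G93A oligodendrocytes, and at 143 and 199 in astrocytes. The rise was thus not particular to MI. The change in MI did not differ detectably from that in DI (difference 0.47 ± 0.15, limma FDR = 0.847) or VI (0.43 ± 0.18, 0.865). Leaving out the 2 mice with fewer than 20 MI nuclei, the females of pools A and C in SOD1G93A, gave 0.828 with FDR = 0.11.

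Sod1, the superoxide dismutase whose human form is the transgene, rose as well. On chromosome 16 at 90220754 to 90226329 (mm10, plus strand), it was at 106, 35.5 and 41.7 CPM in the female and 92.3, 28.6 and 48.6 in the male WT mice of pools A, B and C. In SOD1G93A it was at 101, 118 and 87.9 in the females and 226, 109 and 100 in the males. The groups overlapped through the 2 WT mice of pool A, the log2 change was 1.2 ± 0.18 (limma FDR = 0.00936), and 5 of 6 pairs were higher. Sod1 rose in each of the other sub-types except ME, with log2 changes of 1.07 (DI, limma FDR = 8.85e-05) to 1.75 (VM, limma FDR = 0.0197), and was 0.71 in ME (limma FDR = 0.994). The change in MI did not differ detectably from that in DI (difference 0.06 ± 0.17, limma FDR = 0.991) or VI (−0.34 ± 0.23, limma FDR = 0.97). Reads of the human transgene that align to mouse Sod1 would be counted with it, and the counts do not separate them. Without the pool term Sod1 was at 1.39 with a limma FDR of 0.999, and over all 27 settings run its log2 change lay between 0.879 and 1.55.

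Enox1, which encodes a cell-surface NADH oxidase, fell. It lies on chromosome 14 at 77156763 to 77721760 (mm10, plus strand). It was at 760, 513 and 681 CPM in the female WT mice of pools A, B and C and 685, 578 and 704 in the males, against 335, 363 and 276 in the SOD1G93A females and 456, 580 and 551 in the males. All 3 SOD1G93A females were below every WT mouse, while the males of pools B and C overlapped with WT. The log2 change was −0.62 ± 0.11 (limma FDR = 0.0195), with 5 of 6 pairs lower. By sex it was −0.93 in females (limma FDR = 0.0539) and −0.32 in males (limma FDR = 0.997). The sexes did not differ detectably in this change (limma FDR = 0.998). The SOD1G93A females of pools A and C held 15 and 13 MI nuclei. In other sub-types the change was 0.19 ± 0.09 in DI, 0.04 ± 0.11 in VI and 0.03 ± 0.09 in DE, and MI differed from DI by −0.83 ± 0.10 (limma FDR = 2.24e-05) and from VI by −0.65 ± 0.13 (limma FDR = 0.0198). Enox1 was highest in MI_3 nuclei (820 CPM, against 201 in MI_1 and 349 in MI_4). There it went from 908 CPM in WT to 620 in SOD1G93A, lower in 6 of 6 pairs (log2 −0.76, limma FDR = 0.0123). In MI_1 and MI_4 together the log2 change was −0.02 (limma FDR = 1), but the difference between MI_3 and the others, −0.76 ± 0.22, did not pass the test (limma FDR = 0.9). Without the nuclei of the highest 5% of UMIs the change was −0.48 (limma FDR = 0.386).

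Ebf2, a transcription factor of the early B-cell factor family expressed by many dorsal horn neurons, fell in the fit of all MI nuclei. It lies on chromosome 14 at 67233292 to 67430918 (mm10, plus strand). It was at 167, 46.1 and 58.7 CPM in the female and 86.8, 55.3 and 30.4 in the male WT mice of pools A, B and C, and at 52.9, 25.3 and 37.7 in the female and 13.9, 35.4 and 10.3 in the male SOD1G93A mice. The groups overlapped, all 6 pairs were lower, and the log2 change was −1.64 ± 0.29 (limma FDR = 0.0387). With each mouse left out in turn it ranged from −1.89 to −1.04, and it passed in 6 of 12 fits. The −1.04 (limma FDR = 0.82) came on leaving out the SOD1G93A male of pool A. MI differed from DI by −1.66 ± 0.25 (limma FDR = 0.000575) and from VI by −2.57 ± 0.43 (limma FDR = 0.0155), where the changes were 0.24 in DI and 1.32 in VI (limma FDR = 0.137). The counts were small, at 335 UMIs in WT and 59 in SOD1G93A. A UMI was held by 18.5% of WT and 13.5% of SOD1G93A MI nuclei, against 10.2% and 9.64% of oligodendrocytes. With each nucleus thinned to 5000 UMIs, the shares over both genotypes were 10.8% in MI and 10.4% in oligodendrocytes. Summed over nuclei, Ebf2 was at 64.1 CPM in WT and 23.0 in SOD1G93A MI nuclei, against 78.9 and 84.5 in oligodendrocytes. Ebf2 in MI was thus not above its level in oligodendrocytes. The 14 MI nuclei of integrated cluster 57, whose nuclei were mostly VM (27 of 49), held 166 of the 394 Ebf2 UMIs in MI (42.1%). Of these 14 nuclei, 12 were from WT mice. Without them Ebf2 was at 37.0 CPM in WT and 16.5 in SOD1G93A, with a log2 change of −1.08 (limma FDR = 1), and edgeR's quasi-likelihood test on all MI nuclei gave −1.47 (FDR = 0.239). The differences of Ebf2 from DI and VI were not run without the nuclei of cluster 57. Without the 40 nuclei of clusters 0 and 18 all 4 genes passed, with Ebf2 at −1.55 (limma FDR = 0.026) and the other 3 at FDR = 0.00468.

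**Figure D5:**
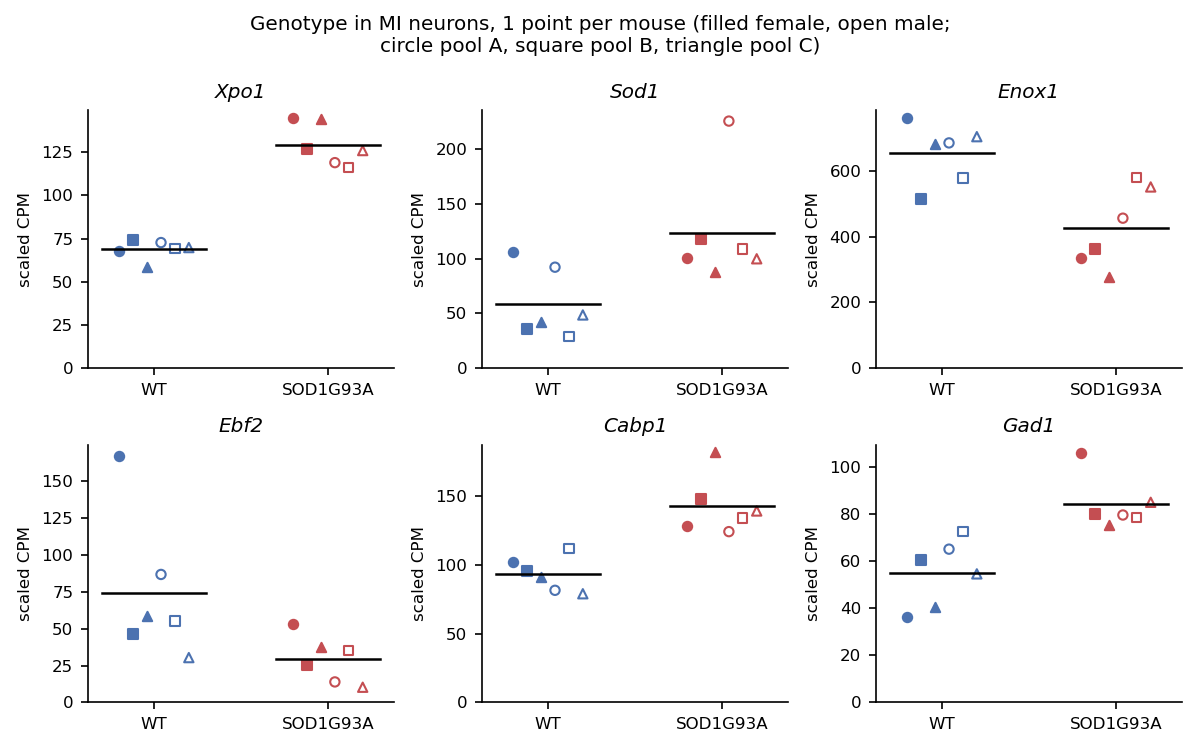
CPM with scaled library sizes (y axes, from 0) of Xpo1, Sod1, Enox1, Ebf2, Cabp1 and Gad1 in MI neurons by genotype (x axis), 1 point per mouse, filled for female and open for male, with circles, squares and triangles for pools A, B and C and the mean as a bar. Xpo1, Cabp1 and Gad1 do not overlap between genotypes, but Cabp1 and Gad1 did not pass FDR < 0.1.

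The next genes by p did not pass the threshold. Cabp1, a calcium-binding protein that tunes calcium channels, was at 93.4 ± 12.4 CPM in WT (78.9 to 112) and 143 ± 21.2 in SOD1G93A (124 to 182), without overlap (log2 0.58 ± 0.13, limma FDR = 0.2). Gad1 was at 54.9 ± 14.2 CPM in WT (36.3 to 72.6) and 84.1 ± 11.1 in SOD1G93A (75.3 to 106), higher in 6 of 6 pairs (log2 0.57 ± 0.16, limma FDR = 0.764). Gm26883, 1700007G11Rik, Med21 and Pde1a had log2 values of 0.47, 1.196, 1.04 and 0.42, with limma FDRs of 0.238, 0.764, 0.764 and 0.764. On the lower side, Fgf13, which binds voltage-gated sodium channels, was at 508 ± 65.6 CPM in WT (456 to 598) and 367 ± 60.3 in SOD1G93A (270 to 414), again without overlap (log2 −0.43 ± 0.11, limma FDR = 0.38). The adhesion gene Flrt2 was at 229 ± 39.3 and 149 ± 35.9 CPM (log2 −0.57 ± 0.13, limma FDR = 0.2), and St8sia6, a sialyltransferase, at 63.2 ± 10.9 and 36.3 ± 11.9 (−0.75, limma FDR = 0.764). D130009I18Rik, Plcxd3 and 4921511C10Rik had log2 values of −1.29, −0.35 and −1.03, with limma FDRs of 0.38, 0.764 and 0.764.

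Gene lists gave few calls, read against the 0.06% of all genes. Among 22 tested genes of nuclear transport 1 rose, Xpo1, and the median log2 change of the list was 0.00695. Among 6 antioxidant genes 1 rose, Sod1 (median 0.364), and Prdx2 was at 25.9 CPM in WT and 39.7 in SOD1G93A (limma FDR = 0.998). Among 4 dorsal excitatory factors 1 fell, Ebf2 (median −0.15). None of 8 inhibitory transmission genes passed (median 0.0209, from −0.126 for Abat to 0.569 for Gad1), with Gad2 at a log2 value of 0.18 (limma FDR = 0.998) and Slc6a5 at 0.03 (limma FDR = 0.998). None of 21 heat-shock genes passed either (median 0.0676), where Hspa8, a constitutive chaperone, was at 41.4 ± 10.98 CPM in WT and 59.5 ± 30.0 in SOD1G93A (log2 0.59, limma FDR = 0.788). Calls were also 0 among 11 GABA-A receptor subunits (median −0.0374), 4 glycine receptor subunits (0.112), 16 ionotropic glutamate receptors (0.019), 20 sodium, calcium and HCN channels (0.0578), 27 potassium channels (−0.0319) and 30 adhesion and guidance genes (−0.0261), and among 8 metabotropic receptors (−0.0653), 9 birth-order factors (0.0725), 8 interneuron class markers (0.118) and 6 dorsal inhibitory factors (0.132). The potassium channel accessory gene Kcnip4, at 9436 ± 1103 CPM in WT and 7745 ± 1587 in SOD1G93A, was lower in 6 of 6 pairs (log2 −0.29, limma FDR = 0.998). Oligodendrocyte markers had 4 genes tested and 0 called, all 4 with a log2 change under 0 (median −0.158), the lowest St18 at −0.478.

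The comparison with the dorsal and ventral inhibitory neurons of the same mice asked which changes differed between them. Against DI, 2 of 9926 genes (0.0201%) differed, Enox1 and Ebf2. Against VI, 11 of 9113 genes (0.121%) differed, 3 with a higher and 8 with a lower change in MI. These calls rest in part on small VI sums, from 7 VI nuclei in the SOD1G93A female of pool A and 14 in the SOD1G93A male of pool C. Tshz2, a zinc-finger factor, was at 520 ± 105 CPM in WT and 681 ± 137 in SOD1G93A in MI, higher in 6 of 6 pairs, and its log2 change was 0.37 in MI and −0.43 in VI, a difference of 0.77 ± 0.13 (limma FDR = 0.00875). Gm26883, a long non-coding RNA on the opposite strand within Tshz2 (chromosome 2, 169633646 to 169888503 of mm10, minus strand), differed by 0.81 ± 0.15 (limma FDR = 0.0138) and Cabp1 by 0.79 ± 0.17 (limma FDR = 0.0437). Lower in MI than in VI were the changes of Tmem132c (−1.88 ± 0.36, limma FDR = 0.0155), Fgf13 (−0.64 ± 0.14, limma FDR = 0.0571), Tcf4 (−0.60 ± 0.13, limma FDR = 0.0608) and Pid1 (−0.59 ± 0.14, limma FDR = 0.0952), beside Enox1 and Ebf2. St18 differed by −1.27 ± 0.23 (limma FDR = 0.0138), a value of −0.674 (limma FDR = 0.747) on leaving out the SOD1G93A female of pool B. It was listed as an oligodendrocyte marker, but within MI it was highest in MI_3 nuclei (190 CPM, against 39.7 in MI_1 and 58.5 in MI_4). Neat1, a nuclear long non-coding RNA, differed by −2.07 ± 0.46 (limma FDR = 0.0646). Tmem132c, at 51.5 ± 26.1 CPM in WT and 16.5 ± 8.52 in SOD1G93A, was lower in 6 of 6 pairs in MI (log2 −1.47, limma FDR = 0.764). Within MI, Tmem132c (66.0 CPM, against 11.5 in MI_1 and 3.54 in MI_4), Tcf4 (990, 477 and 430) and Fgf13 (523, 437 and 272) were highest in MI_3 nuclei. Gm26883 was highest in MI_4 (507 CPM, against 210 in MI_1 and 156 in MI_3) and Cabp1 in MI_1 (119, against 91.3 in MI_3 and 114 in MI_4). What the mix of reference clusters contributed to the differences from VI was not tested. For 5 of the 11 the change in VI was larger in size than that in MI, namely Neat1 (1.54 in VI and −0.88 in MI), St18 (0.63 and −0.48), Pid1 (0.50 and −0.18), Tcf4 (0.38 and −0.21) and Tshz2. None of these 5 passed in MI or VI alone. With each mouse left out in turn, Tshz2 passed in 12 of 12 fits, St18, Gm26883 and Tmem132c in 11, Ebf2 in 10 and Enox1 in 9, but Fgf13 in 5 and Tcf4, Pid1, Cabp1 and Neat1 in 4. Without the 40 nuclei of clusters 0 and 18, Enox1 and Ebf2 still differed from DI, and 3 genes differed from VI, Tshz2 (limma FDR = 0.0324), Ebf2 (limma FDR = 0.0324) and Enox1 (limma FDR = 0.0568). The other 8 kept their sign in every setting run, this one among them. Their differences lay at 0.701 to 0.904 for Gm26883, 0.704 to 0.923 for Cabp1, −2.32 to −1.7 for Tmem132c and −1.43 to −0.674 for St18. For Fgf13 they were −0.71 to −0.548, for Tcf4 −0.685 to −0.465, for Pid1 −0.709 to −0.497 and for Neat1 −2.25 to −1.69.

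Sex differences were few. Outside X and Y, 2 of 6431 genes (0.0311%) passed, and on X and Y 7 of 241 (2.9%), namely Xist, Tsix, Eif2s3x, Uty, Kdm5d, Ddx3y and Eif2s3y, with the direction that the labelled sex gives. Mei4, a meiotic gene, was higher in females (log2 1.01 ± 0.21, limma FDR = 0.0378). It was at 65.3, 35.5 and 49.5 CPM in the female WT and 83.7, 57 and 31.4 in the female SOD1G93A mice of pools A, B and C, against 33.6, 30.6 and 36.4 and 30.3, 10.1 and 23.2 in the males. Chrm3, the M3 muscarinic receptor, was lower in females (−0.47 ± 0.10, limma FDR = 0.0817), where the male SOD1G93A mice, at 629, 522 and 494 CPM, were above all other mice and the WT sexes overlapped. When the 40 nuclei of clusters 0 and 18 were left out, Mei4 was at 1.23 (limma FDR = 0.00317) and Chrm3 at −0.08 (limma FDR = 0.999). With each mouse left out in turn, Mei4 passed in 4 of 12 fits (limma FDR up to 0.308) and Chrm3 in 3 (up to 0.326).

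The genotype effect differed between the sexes in 6 of 6672 genes (0.0899%). Alk, a receptor tyrosine kinase, was at 261, 282 and 235 CPM in the WT females and 83.7, 142 and 113 in the SOD1G93A females. In the males it was at 229, 199 and 185 and at 450, 299 and 193. The effect was thus −1.195 in females and 0.60 in males, a difference of 1.80 (limma FDR = 0.0436). Hmga2, a gene of the MI_4 nuclei, was at 60.5, 37.5 and 45.6 CPM in WT and 61.7, 92.9 and 100 in SOD1G93A females, and at 83.6, 103 and 78.9 against 50.5, 58.2 and 46.3 in males (difference −1.72, limma FDR = 0.0671). The MI_1 gene 9330185C12Rik (difference −3.63, limma FDR = 0.0926) and the MI_3 gene Tshr (3.56, limma FDR = 0.0926) were among the 6 as well, beside D130009I18Rik (3.28, limma FDR = 0.0671) and Ror1 (−1.85, limma FDR = 0.0926). D130009I18Rik was at 37.2 CPM in MI_3, 1.92 in MI_1 and 4.72 in MI_4. Tshr and D130009I18Rik had no UMI in the SOD1G93A females of pools A and C, the mice with 15 and 13 MI nuclei, and 9330185C12Rik none in the SOD1G93A male of pool C, so that the size of these differences depends on the fit. None of the 6 passed without the 40 nuclei of clusters 0 and 18. Alk was at 1.86 (limma FDR = 0.201) and Hmga2 at −1.53 (limma FDR = 0.301), and Tshr and D130009I18Rik did not pass the count filter. The part that the mix of reference clusters in a mouse had in these differences was not tested.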

How the data were processed

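Nuclei of the lumbar cords of 12 mice were profiled with 10x v3 chemistry in 3 pools of 4 mice. The authors aligned reads to an mm10 pre-mRNA reference, and the deposited counts are UMIs per gene and nucleus without normalization (per the submitters' notes, Cell Ranger 3.1, STAR 2.5.1b and Seurat 4.0.3). The authors assigned nuclei to mice from the hashtags and removed nuclei with few genes, with a high mitochondrial percent or with ambiguous hashtags, and the mitochondrial percent and the mapping score, a fraction from 0 to 1, are deposited per nucleus. Doublets within 1 mouse are not marked. Cell types, clusters and neuron sub-types are those deposited, the sub-types from mapping to a published reference with later relabelling of stray cells. The deposited table of transformed values was not used.

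UMIs were summed per gene over the MI nuclei of each mouse. With the design of the paper's methods, limma 3.58.1 was run on sums of genes that passed filterByExpr (minimum count of 10), with TMMwsp factors, voom, terms for the 4 groups of sex and genotype and for the pool, and robust eBayes. P values were Benjamini-Hochberg adjusted over all genes of a comparison, at FDR < 0.1. Differences between MI and DI or VI were fitted on both sums of each mouse, with mouse as a term. Shares were tested with edgeR 4.0.16 (quasi-likelihood, FDR < 0.05). The mouse was the replicate throughout. On simulated data the genotype test found 81.7% of genes changed 2-fold (log2 of 1) and 97% of those changed 4-fold (log2 of 2), with 13 false calls among 6460 genes. The simulation changed 200 genes at once and held no pool effect. Its shares therefore do not give the power of the test where few genes change.

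Levels between sub-types used log2(CPM + 1), with a minimum of 20 CPM for the sets and counts of genes. Positions are from GENCODE M21 (mm10), found for 97.9% of 31040 genes. Genes named are every gene called, the 8 of smallest p in each direction, members of the gene lists, and the leading genes of each level comparison. The members and lists were chosen with earlier results of these data known. Alternatives were other factors, filters, tests (edgeR, DESeq2 1.42.0), nuclei and denominators, and each mouse left out. The labels give no replicate numbers. The pool, which holds 1 mouse of each sex and genotype, was the block in each model, and shares were also tested over the 6 pairs of one sex and pool.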

Additional observations from a re-analysis of the deposited data

Results flagged for a closer look

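In groups of 6 mice, 26 sets of values were examined for a mouse far from the rest, and 3 had one, where chance gives about 1 in 20. MI_1 made up 34.7% of the MI nuclei of the female WT mouse of pool B, against 16.9 to 21% in the other WT mice. Sod1 was at 226.1 CPM in the male SOD1G93A mouse of pool A, against 87.91 to 118.3 in the other SOD1G93A mice. Gad1 was at 105.8 CPM in the female SOD1G93A mouse of pool A, which had 15 MI nuclei, against 75.35 to 84.96 in the others.

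The genotype effect (log2) differed between the sexes, as male minus female, for D130009I18Rik by 3.277 (−2.929 in females, 0.3473 in males), Tshr by 3.562 (−2.893 and 0.6696), Ror1 by −1.852 (1.443 and −0.4096), Alk by 1.8 (−1.195 and 0.6046), 9330185C12Rik by −3.629 (1.254 and −2.375) and Hmga2 by −1.72 (0.9334 and −0.787), each with a limma FDR between 0.0436 and 0.0926.

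It differed between MI and DI for Enox1 (−0.8265) and Ebf2 (−1.664). Between MI and VI it differed for Tshz2 (0.766), Gm26883 (0.8129), Cabp1 (0.7903), St18 (−1.266), Tmem132c (−1.88), Ebf2 (−2.568), Enox1 (−0.6544), Fgf13 (−0.6418), Tcf4 (−0.6003), Neat1 (−2.067) and Pid1 (−0.5907). Without the 40 MI nuclei of clusters 0 and 18, none of the 6 differences between the sexes and 3 of the 11 from VI passed.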

How the results depend on the processing

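The 4 genotype genes kept their direction under every alternative run, and none of the called genes for which alternatives were run changed sign. Against 4 calls, 21 were made with no filter on low counts, 2 with no pool term and 2 without the nuclei of the highest 5% of UMIs. In alternatives chosen after seeing the data, 1 was made without the 2 mice with fewer than 20 MI nuclei, and it was not Xpo1. In the nuclei mapped to MI_1 or MI_4 alone, also chosen after seeing the data and with fewer nuclei summed, there were 0. Calls for sex outside X and Y, 2 in the report, were 1 with a minimum count of 30 and 1 with edgeR, and those for genotype by sex, 6 in the report, were 0 and 1. Without the 40 nuclei of clusters 0 and 18, also chosen after seeing the data, 1 genotype-by-sex call (none of the 6) and 3 of the 11 MI minus VI calls were made. In WT mice alone, where 6 in place of 12 mice had to agree and the means were those of the WT mice, 42 genes were above and 5 below both DI and VI by 1 or more on the log2 scale. Where not stated, the cause was not tested.

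With each mouse left out in turn, calls ranged from 1 to 9 for genotype, 0 to 5 for sex, 0 to 10 for genotype by sex, 2 to 8 for MI minus DI and 5 to 28 for MI minus VI, and the log2 share from −0.364 to −0.107. The lowest genotype count came on leaving out the WT female of pool C or the SOD1G93A male of pool A, and the highest without the female WT or SOD1G93A mouse of pool B. Leaving out the SOD1G93A male of pool A or C left no sex call, and leaving out the WT male of pool A or B left no genotype-by-sex call, while the 10 and the 8 came on leaving out the WT female of pool B. The 5 and the 28 came without the male SOD1G93A mice of pools A and B. Xpo1 passed in 12 of 12 such fits, Sod1 in 10, Enox1 in 8 and Ebf2 in 6. The MI minus DI differences of Enox1 and Ebf2 passed in all 12. They were not run without the 14 MI nuclei of cluster 57, which held 42.1% of the Ebf2 UMIs in MI. Of the genotype-by-sex genes Alk passed in 9 of 12, 9330185C12Rik in 5, Hmga2 in 3, Ror1 and Tshr in 1 each and D130009I18Rik in 0.

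The share effect was −0.243 over neurons of a named sub-type. The 13 and 15 MI nuclei of 2 SOD1G93A mice limit every genotype result. The comparisons with VI are limited as well by the 7 VI nuclei of the SOD1G93A female of pool A and the 14 of the SOD1G93A male of pool C.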

Other observations

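Peptide genes were sparse in MI. Of 19 neuropeptide genes, Penk, the enkephalin precursor, reached 20 CPM in MI (26.6 ± 15.5 CPM over 12 mice, 20.7 in DI and 5.21 in VI). Npy, at 6.86 CPM against 16.9 in DI, and Gal, at 1.66 against 7.03, were below DI in all 12 mice, and Tac1, the substance P precursor, was at 4.29 CPM against 19.7 in DI and above it in 1 mouse. Npy, Gal and Tac1 were under the minimum of 20 CPM in both sub-types.

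The MI nuclei were also spread over small parts of other integrated clusters. The 32 in cluster 11 each held an inhibitory gene, and 78.1% held a Gad gene with Slc6a5, at 218 CPM of Slc6a5. The 29 in cluster 53 each held an inhibitory gene too, with Gad2 at 296 CPM and Slc6a5 at 73.0. In cluster 44 the 66 MI nuclei had Gad2 at 109 and Gad1 at 17.0 CPM, against 121 CPM of Gad1 in cluster 34. The 21 in cluster 6 held an inhibitory gene in 52.4% and a vesicular glutamate transporter in 38.1%. As these clusters were made from the same expression values, the levels are a description.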
